A study of Mus musculus with 12 samples.

Results

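The p53 target genes described here are 10 genes known to be switched on by the transcription factor p53: Cdkn1a, Mdm2, Ccng1, Gdf15, Bax, Trp53inp1, Sesn2, Plk2, Phlda3 and Eda2r. They were found by gene symbol among the 55487 genes of the count table, and all 10 passed the expression filter that left 45828 genes for testing. They were measured by RNA-Seq in whole lungs of 12 mice on postnatal day (PND) 21. All mice carried a whole-body CRISPR deletion of the miR-30a locus (miR-30a-/-) on the C57BL/6J strain. Neonatal pups had been kept either in hyperoxia, at 95% FiO2, or in room air from PND 1 to PND 5, and had then recovered in room air. This gave 4 groups of 3 lungs: female room air, female hyperoxia, male room air and male hyperoxia. Pups of several litters were pooled and shared out again between exposures, and no wild-type lungs were analysed here, so every comparison is within the deletion. The microRNA gene itself had 0 counts in all 12 lungs, which checks nothing, since no undeleted lung stands beside them and the libraries were not made for small RNA.

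p53 is held at a low level by the ubiquitin ligase Mdm2 and is stabilised when DNA is damaged or cells are stressed. It then binds response elements made of a pair of 10-base repeats and raises genes that stop the cell cycle, repair DNA, limit oxidants or lead to cell death. In newborn lungs, high oxygen is a known cause of DNA damage and of p53 and p21 induction. The lungs here were sampled after a recovery period, so the comparisons ask what remained of such a response on PND 21, and whether it differed between females and males.

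The library totals ran from 8763033 to 16741694 counts, and each member had between 57 counts, for Gdf15, and 2450 counts, for Plk2, in any lung. Levels are given as CPM, the counts scaled to a common library size, with upper-quartile scaling. Xist counts were 8834 to 27296 in females and 148 to 210 in males, and Ddx3y counts were 0 in females and 270 to 715 in males, as the sex labels state. The lists of alveolar, endothelial, macrophage and airway markers were all detected, with every gene counted. A share of the reads fell on genes that are not known as lung genes. The 1492 olfactory and vomeronasal receptor genes, here the receptor share, took 0.670% to 0.849% of counts in female hyperoxia, 0.410% to 0.740% in female room air, 0.516% to 0.947% in male hyperoxia and 0.643% to 0.901% in male room air. Gm10800, a gene model, alone took 15.5% to 22.4% of counts in female hyperoxia, 6.04% to 16.6% in female room air, 7.18% to 23.8% in male hyperoxia and 15% to 21.6% in male room air. Where these reads came from is not known from the counts. From the reads per kilobase on these receptor genes, an expected background was worked out for each member.

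Promoter windows show how the members differ in their upstream sequence. RefSeq windows of build GRCm38.p6, 250 bases before to 50 bases after a start, were at hand for 9 of the 10 members, in 11 windows, and not for Trp53inp1. Each window was searched for a pair of p53 repeats, both with the invariant C and G of the repeat, separated by 0 to 13 bases. The repeat pair reads as the same motif on either strand. The 3 closest matches are shown, with the repeats in capitals, 5′ to 3′ on the strand of the gene.
Cdkn1a, chr17:29090896-29090947, plus strand: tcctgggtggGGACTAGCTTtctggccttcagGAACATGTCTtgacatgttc
Ccng1, chr11:40755452-40755491, minus strand: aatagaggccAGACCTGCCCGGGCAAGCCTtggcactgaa
Bax, chr7:45467069-45467109, minus strand: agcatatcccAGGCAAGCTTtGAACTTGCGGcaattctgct
The Cdkn1a pair matched the motif with 0 mismatches at a spacing of 12 bases and lay 73 to 42 bases before the upstream start of the gene. Pairs were ranked by mismatches first and by spacing second. The 10 bases printed in lower case after the second Cdkn1a repeat also hold the invariant C and G, with 1 mismatch. Cdkn1a thus also holds a pair with no spacer and 1 mismatch, at the right end of its stretch. The Ccng1 pair had 1 mismatch and no spacer, and the Bax pair had 2 mismatches at a spacing of 1 base. Among all 32851 windows, 0.0731% held a pair with 0 mismatches, 0.627% a pair with at most 1 and 4.09% a pair with at most 2. The other 8 windows of the members held no pair with fewer than 4 mismatches. Elements that p53 binds can lie outside such windows, and these matches are a description of sequence only.

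Per kilobase of exon, the members spanned a wide range of levels in the miR-30a-/- lung. Plk2, a kinase of the polo-like family, was highest at 20.7 ± 6.63 CPM per kilobase (SD over the 12 lungs). Ccng1, which encodes cyclin G1, and Trp53inp1, which encodes a nuclear cofactor of p53, followed at 15.7 ± 4.20 and 15.6 ± 3.54 CPM per kilobase. Mdm2 stood at 11.5 ± 2.38 and Phlda3, which encodes a repressor of AKT signalling, at 11.3 ± 1.72 CPM per kilobase. Bax, Sesn2 and Cdkn1a lay close together at 8.36 ± 1.45, 7.53 ± 0.846 and 6.85 ± 1.02 CPM per kilobase. Gdf15, a secreted stress cytokine, was at 3.62 ± 0.621 and Eda2r, a receptor of the tumour necrosis factor family, at 1.56 ± 0.382 CPM per kilobase. Neighbours in this order differed by less than the larger of their SDs, apart from Trp53inp1 against Mdm2, Phlda3 against Bax, Cdkn1a against Gdf15 and Gdf15 against Eda2r. The expected background made up 75.4% of the counts of Eda2r and 32.4% of those of Gdf15, and between 5.46% (Plk2) and 17% (Cdkn1a) of the counts of the others. With the read density measured on silent X-linked genes in each lung, the share for Eda2r was 81.7%.

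**Figure D1:**
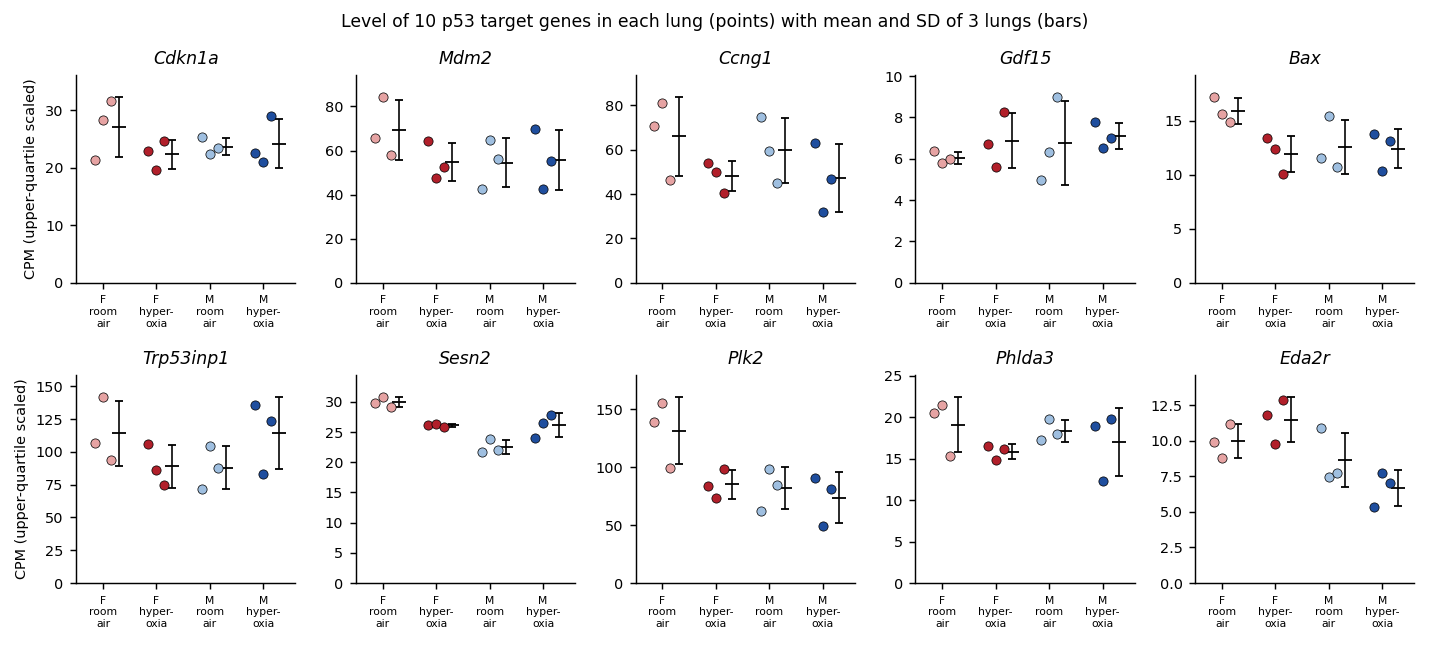
CPM of each p53 target gene on the y axis, from 0, for the 3 lungs of each group on the x axis (F, female, M, male). Points are lungs and bars are the mean and SD. The Bax, Sesn2 and Plk2 points of female hyperoxia all sit below those of female room air, and the Sesn2 points of male hyperoxia all sit above those of male room air.

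Hyperoxia left no called change in any of the 10 genes on PND 21. A call needed both a fold change over 1.5 and, in edgeR's quasi-likelihood test, a p under 0.05 after Benjamini-Hochberg adjustment over all genes tested. With both sexes pooled 0 of 10 members were called, against 0.0415% of all genes, and their adjusted p-values were 0.927 or above. In females 0 of 10 were called, against 0.00218% of all genes, with a smallest adjusted p of 0.354. In males 0 of 10 were called, against 0% of all genes, with adjusted p-values of 1.00. At an unadjusted p under 0.05, 2 of 10 were lower with both sexes pooled (background 2.52%), 2 of 10 were lower in females (background 5.28%), and 0 of 10 passed in males in either direction (background 2.70%). Over the 16980 protein-coding genes with a mean of at least 5 CPM, the same shares were 4.99%, 11.6% and 2.27%. By DESeq2 the called counts were also 0 in each.

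The cell cycle inhibitor p21, encoded by Cdkn1a (chromosome 17, 29090976 to 29100727, plus strand), is the best known p53 target. Its CPM in female room air lungs 2, 5 and 6 was 21.3, 28.3 and 31.6, and in female hyperoxia lungs 2, 4 and 5 it was 22.9, 19.6 and 24.6. In male room air lungs 1, 4 and 5 it was 25.3, 22.3 and 23.4, and in male hyperoxia lungs 1, 2 and 3 it was 22.6, 21.0 and 29.0. The groups overlapped in both sexes, with the highest level in a female room air lung and the lowest in a female hyperoxia lung. The log2 fold change was -0.27 ± 0.16 (SE) in females, with a 95% interval from -0.60 to 0.05, and 0.04 ± 0.16 in males, with an interval from -0.29 to 0.36. Those intervals contain no rise of 1.5-fold in either sex. A gene on the other strand, 1700023B13Rik, overlaps Cdkn1a and had 662 counts over all lungs, against 3652 for Cdkn1a.

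Mdm2 (chromosome 10, 117688875 to 117710758, minus strand) and Ccng1 (chromosome 11, 40748552 to 40755311, minus strand) act in the feedback that limits p53. Mdm2 CPM was 65.9, 84.4 and 57.8 in female room air, 64.1, 47.3 and 52.6 in female hyperoxia, 42.5, 64.7 and 56.2 in male room air and 69.6, 42.5 and 55.3 in male hyperoxia. Its groups overlapped in each sex, with a log2 fold change of -0.34 ± 0.21 in females and 0.04 ± 0.21 in males. Ccng1 CPM was 70.9, 80.9 and 46.2 in female room air, 53.8, 50.1 and 40.5 in female hyperoxia, 74.7, 59.2 and 45.2 in male room air and 62.8, 32.1 and 46.7 in male hyperoxia. The Ccng1 value was lower after hyperoxia in both sexes, by a log2 fold change of -0.46 ± 0.23 in females and -0.33 ± 0.23 in males. Leaving out 1 lung, the male value ran from -0.59 without hyperoxia lung 1 to -0.11 without hyperoxia lung 2. It was -0.14 without room air lung 1, the highest male lung for Ccng1, whose summed skeletal muscle markers were 1819 CPM against 122 to 222 CPM in the other 11 lungs, and the female value was -0.29 without room air lung 5. Pooled, it was -0.40 ± 0.16 with all 6 hyperoxia lungs below the room air mean, and the adjusted p in edgeR was 0.927 (unadjusted p 0.021). With 2 factors of unwanted variation estimated from the residuals (RUVr) the pooled value was -0.39 with an adjusted p of 2.1e-06, a fold under the threshold of 1.5.

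Bax and Trp53inp1 belong to the arm of the response that leads to cell death. Bax (chromosome 7, 45461697 to 45466898, minus strand) encodes a protein that permeabilises the outer mitochondrial membrane. Its CPM was 17.2, 15.6 and 14.9 in female room air and 13.4, 12.3 and 10.1 in female hyperoxia, so the groups did not overlap. In males it was 11.5, 15.4 and 10.7 in room air and 13.7, 10.3 and 13.1 in hyperoxia, with the groups interleaved. The log2 fold change was -0.41 ± 0.17 in females, with an adjusted p of 0.359 in edgeR (unadjusted p 0.020), and -0.01 ± 0.17 in males. Trp53inp1 (chromosome 4, 11156431 to 11174379, plus strand) had a CPM of 107, 142 and 93.6 in female room air, 106, 85.9 and 74.5 in female hyperoxia, 71.9, 105 and 87.8 in male room air and 136, 83.2 and 123 in male hyperoxia. Its values were lower after hyperoxia in females, with a log2 fold change of -0.36 ± 0.23, and higher in males, with 0.37 ± 0.23, and the groups overlapped in each sex.

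Sesn2 and Plk2 are tied to oxidative and metabolic stress. Sesn2 (chromosome 4, 132492032 to 132510501, minus strand) encodes sestrin 2, which restrains the growth kinase complex mTORC1 and is also raised by the integrated stress response. Its CPM was 29.9, 30.8 and 29.2 in female room air, 26.2, 26.3 and 25.9 in female hyperoxia, 21.7, 23.8 and 22 in male room air and 24, 26.5 and 27.9 in male hyperoxia. Every female hyperoxia lung lay below every female room air lung, and every male hyperoxia lung lay above every male room air lung, although neither change was called. The log2 fold changes were -0.20 ± 0.13 in females (adjusted p 0.486 in edgeR) and 0.22 ± 0.14 in males (adjusted p 1.00). The gene Gm12981, on the same strand, overlaps Sesn2 and had 645 counts over all lungs, against 3917.

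Plk2 (chromosome 13, 110395046 to 110400844, plus strand) had the largest difference among the members in females. Its CPM was 139, 156 and 99.6 in female room air and 83.5, 73.7 and 98.7 in female hyperoxia, so the highest hyperoxia lung fell just short of the lowest room air lung. In males it was 62.6, 98.3 and 84.7 in room air and 90.7, 49.1 and 81.2 in hyperoxia. The log2 fold change was -0.63 ± 0.23 in females, with an adjusted p of 0.354 in edgeR (unadjusted p 0.013), and -0.15 ± 0.24 in males. Pooled, it was -0.39 ± 0.17 with 6 of 6 hyperoxia lungs below the room air mean (adjusted p 0.927, unadjusted p 0.027). With 1 or 2 RUVr factors, Plk2 was called in females, at a log2 fold change of -0.59 in both. The same fits called 1898 and 1945 of all genes in females.

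Gdf15, Phlda3 and Eda2r complete the set. Gdf15 (chromosome 8, 70629393 to 70632456, minus strand) had a CPM of 6.37, 5.79 and 6.00 in female room air, 6.74, 5.62 and 8.25 in female hyperoxia, 4.98, 6.35 and 8.99 in male room air and 7.75, 6.53 and 7.01 in male hyperoxia, and its groups overlapped with log2 fold changes of 0.19 ± 0.22 and 0.07 ± 0.22 in females and males. Phlda3 (chromosome 1, 135766119 to 135769136, plus strand) had a CPM of 20.5, 21.5 and 15.3 in female room air, 16.5, 14.8 and 16.2 in female hyperoxia, 17.2, 19.7 and 18 in male room air and 18.9, 12.3 and 19.7 in male hyperoxia. All Phlda3 groups overlapped, with log2 fold changes of -0.27 ± 0.17 in females and -0.10 ± 0.17 in males. Eda2r (chromosome X, 97333840 to 97377216, minus strand) had a CPM of 9.95, 8.78 and 11.2 in female room air, 11.8, 9.76 and 12.9 in female hyperoxia, 10.9, 7.48 and 7.71 in male room air and 5.32, 7.73 and 7.01 in male hyperoxia. Its log2 fold change was 0.21 ± 0.19 in females and -0.39 ± 0.20 in males, where 3 of 3 hyperoxia lungs lay below the room air mean and only lung 2 of hyperoxia reached the range of room air.

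**Figure D2:**
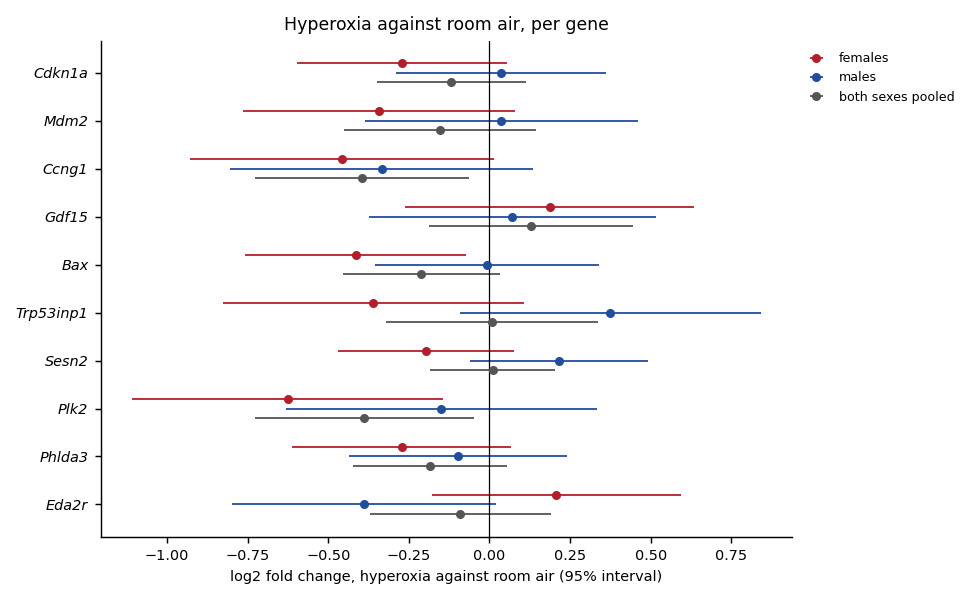
log2 fold change of hyperoxia against room air on the x axis for each gene on the y axis, with 95% intervals, in females, males and both sexes pooled. The female intervals of Bax and Plk2 lie below 0, as do the pooled intervals of Ccng1 and Plk2, and no adjusted p passed 0.05.

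Across the set, hyperoxia values in females were mostly lower and those in males were divided. In females 8 of 10 members had a lower value after hyperoxia, with a median log2 fold change of -0.31. Of all genes tested 39.0% had a lower value in females, and of the protein-coding genes with a mean of at least 5 CPM 63.1% did. The median over all 45828 genes was 0.11, and that over the 16980 protein-coding genes with a mean of at least 5 CPM was -0.12. The median over all genes was 0.02 by DESeq2, 0.0024 with the receptor share as covariate, 0.05 without female room air lung 5 and 0.19 without female room air lung 6. In males 5 of 10 were lower (52.0% of all genes and 44.1% of the protein-coding genes were), with a median of 0.01, against -0.01 over all genes and 0.02 over the protein-coding genes. Groups did not overlap for 3 of 10 members that were lower in females (Bax, Sesn2 and Plk2, background 6.42%) and for 1 of 10 that was higher in males (Sesn2, background 2.73%). Over the protein-coding genes these shares were 13.2% and 2.50%. With both sexes pooled, 0 of 10 had groups that did not overlap (background 0.214%). In whole lung, fewer cells of a type that expresses a gene and less RNA per cell cannot be told apart. Summed type 2 alveolar markers ran from 4437 to 7996 CPM in female room air and from 4109 to 5186 CPM in female hyperoxia, and summed endothelial markers from 1118 to 1559 and from 944 to 1236 CPM. The groups did not overlap for summed red cell markers, at 5119 to 7572 CPM in female room air and 1247 to 2894 CPM in female hyperoxia, nor for summed cardiac muscle markers, at 104 to 124 and 42.0 to 72.2 CPM. Summed airway markers ran from 6198 to 11549 and from 4396 to 6391 CPM in the same female groups. In males the red cell groups did not overlap either, at 5152 to 7789 CPM in room air and 2211 to 4620 CPM in hyperoxia. The male cardiac muscle groups overlapped, at 45.1 to 97.6 and 51.6 to 56.3 CPM. The part of any of these cells in the lower values was not tested.

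The sexes were compared directly by the difference between the female and the male response. Of the 10 members, 0 were called for this difference, against 0% of all genes, and 3 of 10 had an unadjusted p under 0.05 (background 8.46%, and 8.13% over the protein-coding genes). Trp53inp1 had a female minus male response of -0.73 ± 0.32 on the log2 scale (unadjusted p 0.030), Sesn2 of -0.41 ± 0.19 (unadjusted p 0.039) and Eda2r of 0.60 ± 0.27 (unadjusted p 0.039). All 3 had an adjusted p of 0.578 in edgeR. Trp53inp1 was called for this difference with 1 or 2 RUVr factors, at -0.72 in both, and by no other alternative. With these factors 2102 and 2223 of all genes were called. Over the alternatives the Trp53inp1 value ran from -0.93 to -0.21.

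Females and males were also compared within each exposure. In room air 1 of 10 members had a lower value in females than in males, where 59.9% of all genes and 38.0% of the protein-coding genes did. The median log2 difference was 0.27 over the members, -0.10 over all genes and 0.10 over the protein-coding genes. Of the 10, 0 were called (0.386% of all genes were), and 3 of 10 were higher at an unadjusted p under 0.05 (background 4.94%, and 8.92% over the protein-coding genes). Those were Plk2, at a log2 difference of 0.69 ± 0.24, Sesn2, at 0.41 ± 0.13, and Bax, at 0.34 ± 0.17, with adjusted p-values in edgeR of 0.260, 0.237 and 0.392. Over the alternatives these differences ran from 0.27 to 0.86 for Plk2, 0.35 to 0.51 for Sesn2 and 0.15 to 0.53 for Bax. For Plk2 and Sesn2 the female and male room air lungs did not overlap (2 of 10 members, background 5.60%, and 8.91% over the protein-coding genes). After hyperoxia 6 of 10 were lower in females (50.3% of all genes and 63.1% of the protein-coding genes were), 0 were called (0.696% of all genes were), and only Eda2r passed an unadjusted p under 0.05 as higher (1 of 10, background 3.59%, and 1.80% over the protein-coding genes). For Plk2 the female hyperoxia lungs, at 73.7 to 98.7 CPM, overlapped the male lungs of both exposures. For Sesn2 the female hyperoxia lungs, at 25.9 to 26.3 CPM, lay above all 3 male room air lungs, at 21.7 to 23.8 CPM, and inside the range of the male hyperoxia lungs. These comparisons use the same female room air lungs as the female response, so the values are not independent of it.

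Eda2r came closest to a call. Its female hyperoxia lungs, at 9.76 to 12.9 CPM, lay above its male hyperoxia lungs, at 5.32 to 7.73 CPM (1 of 10 members with groups that did not overlap, background 5.78%, and 3.27% over the protein-coding genes), with a log2 difference of 0.79 ± 0.20 and an adjusted p of 0.055 in edgeR. DESeq2 called it, at 0.78 with an adjusted p of 0.041. Leaving out 1 lung at a time, edgeR called it without male room air lung 1, female room air lung 5, female room air lung 6 or male hyperoxia lung 2, at 0.79, 0.79, 0.79 and 0.89, and not without any of the other 8 lungs. Eda2r is X-linked, and background reads were not equal between the sexes on the X chromosome: over 89 X-linked genes silent in lung, the density of reads was 1.38 to 1.74 times that on the receptor genes in females and 0.633 to 0.730 times in males. With the receptor density subtracted in both sexes, the male hyperoxia lungs were left with 5, 0 and 0 counts of Eda2r and the female hyperoxia lungs with 58, 19 and 48. With the X density of each lung subtracted, the male hyperoxia lungs were left with 25, 11 and 30 counts and the female hyperoxia lungs with 20, 0 and 9. The sign of the Eda2r difference therefore turned with the background used, to -0.96 ± 0.79 (unadjusted p 0.239) with the X density of each lung, and no size was taken from either subtraction. Eda, the X-linked ligand of the same family, was called in the same comparison, at 0.70 ± 0.14 with an adjusted p of 0.009 in edgeR. That call was lost without male hyperoxia lung 3, female hyperoxia lung 4 or female hyperoxia lung 5, at 0.66, 0.71 and 0.64. With the X density of each lung subtracted, Eda was at 0.25 ± 0.24 with an adjusted p of 1.00 in edgeR.

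The level of most members followed the receptor share from lung to lung. Over the 12 lungs, the log2 CPM of Mdm2 had a Pearson r of -0.94 and a Spearman rho of -0.97 with the log2 receptor share (two-sided permutation p 2e-05 for each, Benjamini-Hochberg adjusted p 0.0002 over the 10 relations). The r was -0.88 without the 2 lungs farthest from the median share and -0.92 for values centred on their group. Trp53inp1 (r -0.86, adjusted permutation p 0.0013), Plk2 (r -0.83, adjusted permutation p 0.0026), Bax (r -0.79, adjusted permutation p 0.005), Phlda3 (r -0.76, adjusted permutation p 0.0079) and Ccng1 (r -0.70, adjusted permutation p 0.019) had the same sign. Their rho values ran from -0.93 for Trp53inp1 to -0.64 for Ccng1, whose rho had an adjusted permutation p of 0.050. Without the 2 farthest lungs, r ran from -0.87 for Bax to -0.54 for Ccng1. Cdkn1a (r -0.13), Gdf15 (r 0.03), Sesn2 (r -0.47) and Eda2r (r 0.30) had adjusted permutation p-values of 0.174 or above. Centred on their groups, the r was 0.20 for Cdkn1a, -0.19 for Gdf15, -0.02 for Sesn2 and 0.79 for Eda2r, so within groups the sign for Eda2r was opposite to that for Mdm2, given as a description with no test. Over the 16980 protein-coding genes with a mean of at least 5 CPM, the median r was -0.47 and 39.8% were below -0.7, as were 5 of the 10 members.

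**Figure D3:**
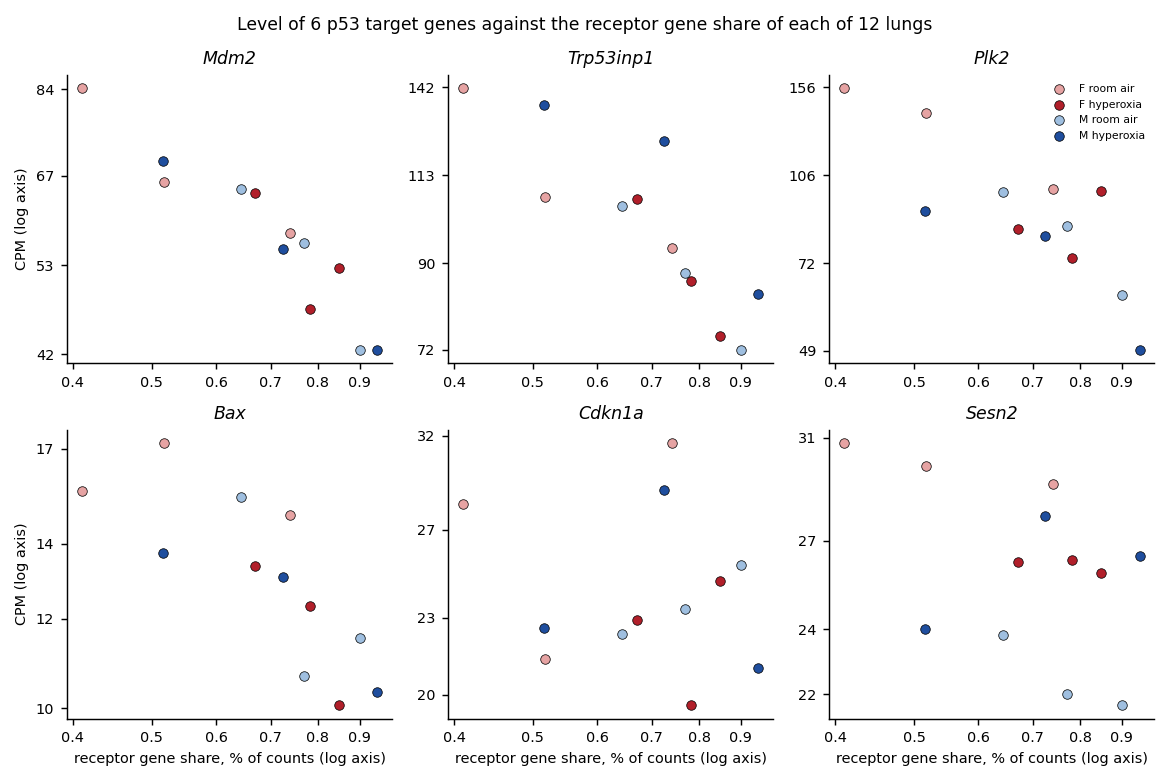
CPM of 6 p53 target genes on the y axis against the share of counts on receptor genes on the x axis, both on log axes, with 1 point per lung coloured by group. Mdm2, Trp53inp1, Plk2 and Bax fall as the share rises, and Cdkn1a and Sesn2 show no such order.

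The receptor share was higher in female hyperoxia than in female room air, apart from room air lung 6, so the female values were computed again with the log2 share as a covariate. The female log2 fold change of Mdm2 became 0.07 ± 0.11, that of Trp53inp1 0.06 ± 0.11, that of Phlda3 0.02 ± 0.14 and that of Ccng1 -0.03 ± 0.27. Plk2 became -0.18 ± 0.15 and Bax -0.22 ± 0.16. Cdkn1a and Sesn2 were at -0.34 ± 0.14 and -0.19 ± 0.12. With the expected background subtracted from the counts instead, Cdkn1a was at -0.19 ± 0.20, Plk2 at -0.41 ± 0.19, Bax at -0.32 ± 0.18, Mdm2 at -0.18 ± 0.16 and Sesn2 at -0.06 ± 0.14. Under neither were any of the 10 called in females, males or both sexes pooled. Of all genes, 22, 6 and 18 were called with the covariate, in that order, and 0, 0 and 10 with background subtracted.

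**Figure D4:**
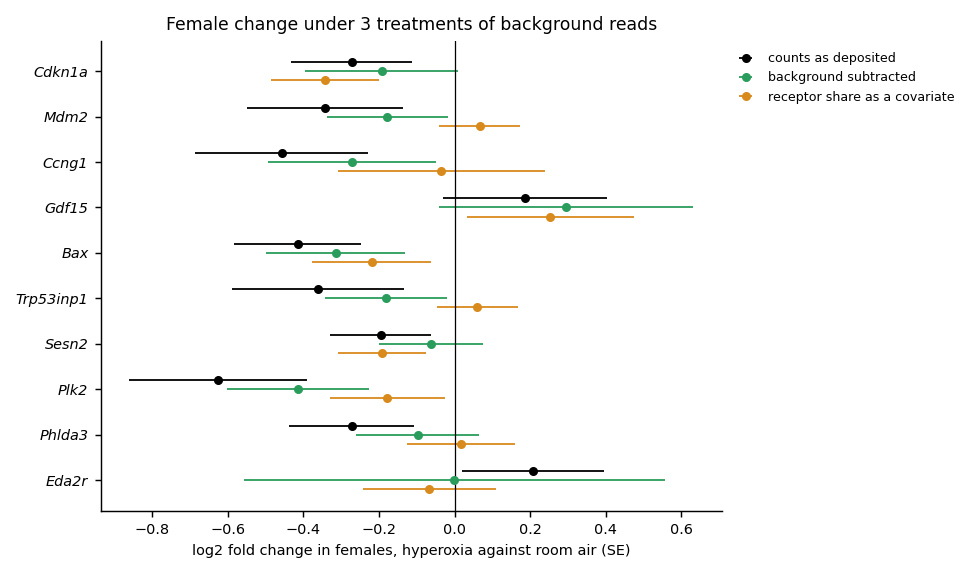
Female log2 fold change on the x axis for each gene on the y axis, with its SE, from the counts as deposited, with the expected background subtracted and with the receptor share added to the model. Mdm2, Trp53inp1 and Phlda3 move from below 0 to just above it with the covariate, while Cdkn1a and Sesn2 stay below 0.

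Members were also compared with each other over the 12 lungs. Of the 45 pairs, 35 had a positive Pearson r of log2 CPM, with a median r of 0.24. A two-sided permutation test with 100000 resamples, adjusted over the 45 pairs, passed 0.05 for 5 pairs, all positive. The closest were Mdm2 with Plk2 (r 0.86, rho 0.78, adjusted permutation p 0.017 for r and 0.057 for rho) and Mdm2 with Trp53inp1 (r 0.84, rho 0.85, adjusted permutation p 0.017 and 0.030). Without the 2 lungs farthest from the median of Mdm2 these were r 0.70 and r 0.79. Plk2 with Phlda3, Ccng1 with Phlda3 and Mdm2 with Phlda3 had r of 0.75 each (adjusted permutation p 0.045), which fell to 0.41, 0.45 and 0.53 without the 2 lungs farthest in the first gene of the pair, so these rest in part on those lungs. Centred on their groups, the values gave r of 0.87 for Mdm2 with Plk2 and 0.93 for Mdm2 with Trp53inp1, and 0 of 45 pairs passed an exact permutation within groups. That test had only 1296 reorderings, so it was coarser than the test over all 12 lungs. With the receptor share regressed out of both genes, the median r was 0.15 and 0 of 45 pairs passed.

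Cdkn1a was in none of the 5 pairs. Among 41153 genes with a mean of at least 1 CPM, the 3 outside the set with the highest r to Cdkn1a over the 12 lungs were Gm17195 (r 0.89, rho 0.71), Tecrl (r 0.85, rho 0.92) and Gm43790 (r 0.85, rho 0.85), given as a description without a test.

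The rest of the pathway was covered by lists of further genes. Of 41 other p53 target genes, 0 were called in females, males or both sexes pooled. Their median log2 fold change was -0.24 in females, 0.04 in males and -0.12 pooled. Pooled, 6 were lower and 0 were higher at an unadjusted p under 0.05 (2.52% of all genes and 4.99% of the protein-coding genes were lower), with a smallest adjusted p of 0.079 in edgeR. In females 10 were lower and 1 was higher at an unadjusted p under 0.05, and in males 3 were lower and 1 was higher. The shares of all genes were 5.28% lower and 7.32% higher in females and 1.80% lower and 0.899% higher in males, and those of the protein-coding genes 11.6%, 4.77%, 1.43% and 0.848%. The antiproliferative gene Btg2 was at -0.53 ± 0.25 and the DNA damage gene Gadd45a at -0.46 ± 0.20 in females, and both had an unadjusted p under 0.05. The death receptor gene Fas was at -0.24 ± 0.16 in females and 0.40 ± 0.17 in males, with an unadjusted p of 0.022 in males and of 0.011 for the difference, and no adjusted p under 0.05. The proapoptotic gene Bbc3 (-0.32 ± 0.18), the ribonucleotide reductase gene Rrm2b (-0.31 ± 0.16), the RNA-binding gene Zmat3 (-0.16 ± 0.16) and the nuclease gene Aen (-0.17 ± 0.14) had intermediate female values. The sestrin genes Sesn1 and Sesn3 stood at -0.15 ± 0.18 and -0.33 ± 0.20 in females. Perp, a gene of desmosomes and cell death, had 37.0 CPM in male room air lung 1 and 5.33 to 12.2 CPM in the other 11 lungs.

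p53 itself and its regulators had no called change by exposure. Trp53 was at -0.35 ± 0.17 in females and -0.07 ± 0.17 in males on the log2 scale, Mdm4, the partner of Mdm2, at -0.35 ± 0.23 and 0.16 ± 0.23, the phosphatase gene Ppm1d at -0.18 ± 0.16 and 0.13 ± 0.16, and the kinase gene Atm at -0.17 ± 0.16 and -0.05 ± 0.16. Of the 21 genes of this list 0 were called, with medians of -0.24 in females and 0.03 in males. mRNA says nothing of p53 protein, which is controlled by its stability.

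Cell cycle genes that p21 represses were the only list of the 6 with a female median above 0. Of 20 such genes, 0 were called, and the medians were 0.14 in females and -0.22 in males, where 17 of 20 were lower. The medians were 0.11 and -0.01 over all genes and -0.12 and 0.02 over the protein-coding genes, and 52.0% of all genes and 44.1% of the protein-coding genes were lower in males. Expected background made up 21.1% to 64.2% of the counts of these 20 genes. The proliferation marker Mki67 was at -0.25 ± 0.19 in females and -0.47 ± 0.19 in males, and the mitotic cyclin gene Ccnb1, for which background was 64.2% of counts, at 0.43 ± 0.23 and -0.10 ± 0.22. Nusap1, a spindle gene picked out after its values were seen, was at -0.58 ± 0.10 with both sexes pooled, a 1.49-fold difference with an adjusted p of 0.020 in edgeR, just under the fold threshold. It was called with TMM, DESeq2, no filter or background subtracted, at -0.59, -0.61, -0.59 and -0.83, and without any 1 of 5 lungs, at -0.63 to -0.59. Its 6 hyperoxia lungs ran from 11.6 to 14.5 CPM and its 6 room air lungs from 16.9 to 21.3 CPM.

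Paralogs and partners of the members gave 0 called genes of 20 by exposure. The p21 relatives Cdkn1b and Cdkn1c were at -0.32 ± 0.22 and -0.21 ± 0.19 in females and at 0.28 ± 0.22 and 0.26 ± 0.19 in males. Ccng2, the paralog of Ccng1, was at -0.18 ± 0.18 and 0.37 ± 0.18 and Plk3, a paralog of Plk2, at -0.25 ± 0.14 and 0.13 ± 0.14.

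Sesn2 and Gdf15 are also targets of the integrated stress response, so its genes were set beside them. Of 12 such genes, these 2 included, 0 were called by exposure, with medians of -0.20 in females and -0.01 in males, and 4 were lower in females at an unadjusted p under 0.05 (5.28% of all genes and 11.6% of the protein-coding genes were). The regulator Atf4 was at -0.62 ± 0.21 in females and -0.20 ± 0.21 in males, and Ddit3, which encodes CHOP, at -0.25 ± 0.21 and 0.22 ± 0.21. Atf3, a transcription factor of this response and of p53, was called between the sexes in room air, higher in females at a log2 difference of 1.23 ± 0.23 with an adjusted p of 0.007 in edgeR. The call was lost with at least 10 counts in every library, with background subtracted and without male room air lung 1 (log2 differences 1.19, 1.61 and 1.11, adjusted p 0.114, 0.076 and 0.066), and without female room air lung 6 the difference was 0.78. Its CPM was 10.8, 14.4 and 26.8 in female room air, 7.26, 8.19 and 10.2 in female hyperoxia, 6.06, 8.43 and 7.63 in male room air and 6.28, 7.18 and 6.50 in male hyperoxia. Female room air thus stood above the 3 other groups for Atf3 in every lung.

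**Figure D5:**
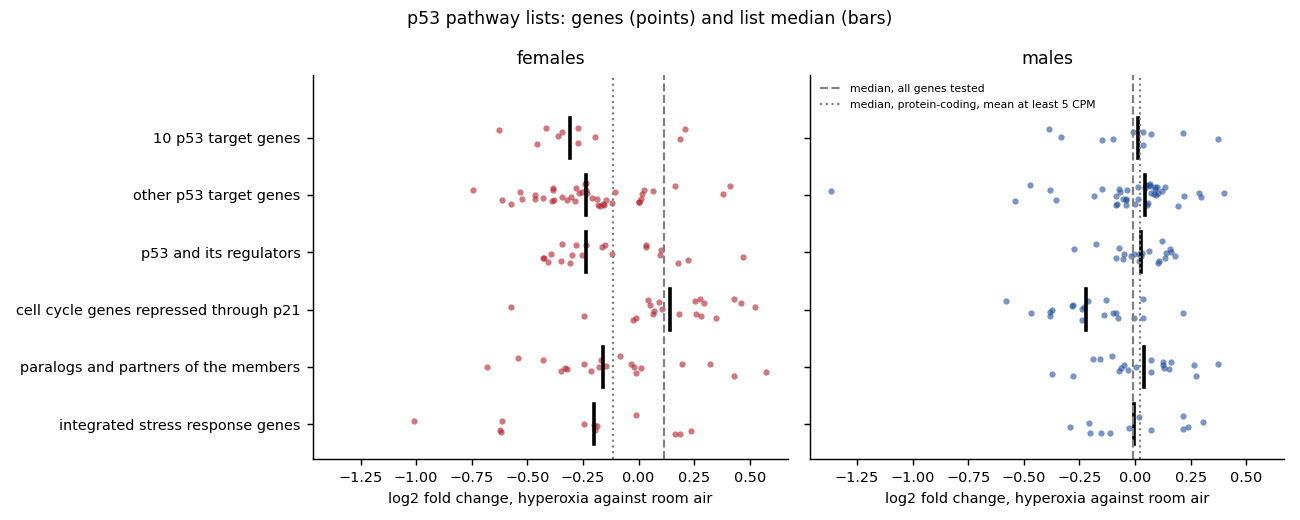
log2 fold change of hyperoxia against room air on the x axis for each gene (points) of each list on the y axis, with the list median (black bar), in females and males. Grey lines are the median of all 45828 genes tested (dashed) and of the 16980 protein-coding genes with a mean of at least 5 CPM (dotted). The bar of the cell cycle list lies right of 0 in females and left of 0 in males, and the bars of the other lists lie left of both grey lines in females.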

How the data were processed

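Whole lung RNA was made into libraries with a stranded kit. The kit named in the labels differs from that in the methods. The authors deposited raw gene counts made by featureCounts, with no normalization, from reads trimmed in Trim Galore and aligned by STAR to mm10 (versions and strand setting not given in the sources used here). The authors' ComBat-seq step joined wild-type data not used here and was not repeated. The authors also used RUVr beside upper-quartile scaling, with the number of factors not given. RUVr was therefore left out of the main model here and run as an alternative, so the main model is not the authors' full procedure.

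Counts were fitted for the 4 groups with edgeR 4.0.16 (R 4.3.3, robust quasi-likelihood, upper-quartile scaling, filterByExpr, no replicate block), with a biological coefficient of variation of 0.177. DESeq2 1.42.0, TMM, other filters, RUVr factors, the receptor share, background subtraction and leaving out lungs were alternatives. The subtractions with another background for X-linked genes and the regression on receptor share were added after seeing the data. Exon lengths came from GENCODE mouse release 21 and matched 55227 of 55487 genes. Correlations used log2 CPM with a prior count of 2, in Python 3.11.15. On simulated data, edgeR recovered 82 of 100 genes changed 2-fold in females, 81 in males and 97 with both sexes pooled. All 100 genes changed 4-fold were recovered in each. False calls numbered 21 in females, 12 in males and 12 pooled. The simulated lungs were given no difference in receptor share. Lungs of a group differed beyond sampling noise in every pair. Intervals cover 95%.

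The members, gene lists and the genes named (all members, set regulators and paralogs, list genes called, and the 3 genes most like Cdkn1a) were chosen with earlier results of these data known.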

Additional observations from a re-analysis of the deposited data

Results flagged for a closer look

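Sesn2 stood out because its response to hyperoxia went in opposite directions in the sexes: all 3 female hyperoxia lungs lay below the female room air mean and all 3 male hyperoxia lungs lay above the male room air mean. The female minus male response was -0.41 on the log2 scale, with an unadjusted p of 0.039 and an adjusted p of 0.578 in edgeR's quasi-likelihood test of the interaction. Over the alternatives it ran from -0.52 to -0.30, and the adjusted p from 0.030 to 1.00, with a fold below the threshold of 1.5 throughout. Groups of 3 lungs were too small for a test of single outlying lungs.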

How the results depend on the processing

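Of 1282 recomputed log2 values of members and named genes, 1201 kept their direction. The members called stayed at 0 in the hyperoxia comparison with both sexes pooled and in males under every alternative. In females, in the interaction and between the sexes in room air, 1 member was called with 1 RUVr factor and 1 with 2 RUVr factors (Plk2, Trp53inp1 and Plk2, in that order of comparisons) and 0 under the other alternatives. Between the sexes after hyperoxia, 1 member (Eda2r) was called with TMM, DESeq2, no filter, 1 or 2 RUVr factors, the receptor share covariate (log2 difference 0.74) and background subtraction, which left the male hyperoxia lungs 5, 0 and 0 counts and so gives no size, and 0 with the X density of each lung subtracted (-0.96), with at least 10 counts in every library, with adjusted p alone and with the receptor density subtracted at 0.444 of its value for X-linked genes in males (0.15), which uses the measured X density of neither sex. Leaving out 1 lung gave 0 to 1 there, with 1 without male room air lung 1, female room air lung 5, female room air lung 6 or male hyperoxia lung 2. Leaving out 1 lung gave 0 in the other comparisons. With RUVr factors, adjusted p passed 0.05 at a fold under 1.5 for Mdm2, Ccng1, Bax and Trp53inp1 in females, Ccng1 and Trp53inp1 in males, Ccng1 and Plk2 pooled, Sesn2 for the interaction and Sesn2 and Bax between the sexes in room air. The cause was not tested in any of these.

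Over all genes, called counts moved far more: 19 pooled (10 with background subtracted, 118 with 2 RUVr factors, 3 to 37 without 1 lung), 1 in females (89 by DESeq2, 1945 with 2 RUVr factors, 0 to 206 without 1 lung, the highest without female room air lung 6), 0 in males (71 with 2 RUVr factors, 0 to 1 without 1 lung), 0 for the interaction (0 by DESeq2, 2223 with 2 RUVr factors), 177 between the sexes in room air (3 with at least 10 counts in every library, 2314 with 2 RUVr factors, 107 without female room air lung 2, 616 without female room air lung 6) and 319 after hyperoxia (148 with background subtracted, 688 with 2 RUVr factors, 139 without female hyperoxia lung 5, 422 without female room air lung 6). Calls of Nusap1, Eda and Atf3 also changed, as given with their values above. Animal numbers 2 and 5 occur in both female groups. Deviations of these lungs from their group means correlated at 0.08 and -0.20 between the groups. With 3 lungs in a group, this cannot tell whether same-numbered lungs share more than a number. With the replicate block in the 6 female libraries, 451 genes and 0 members were called, against 80 genes without the block in those libraries, and Cdkn1a was at -0.02 with the block. No paired analysis was possible in males, which share a single number.

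Direction turned for the log2 values below, none of them called. With DESeq2 these were Bax in males (0.011) and, pooled, Trp53inp1 (-0.035), Sesn2 (-0.033) and Cdkn1c (-0.017), and with TMM Trp53inp1 (-0.0085) and Sesn2 (-0.011). Without a filter they were Bax in males (0.0029), Trp53inp1 (-0.0089) and Sesn2 (-0.0082). With at least 10 counts they were Ppm1d (0.0066), Zmat3 (0.012), Cdkn1b (0.0073) and Ddit3 (0.021). With background subtracted they were Mdm2 in males (-0.018), Eda2r in females (-0.00067), Ppm1d (0.023), Sesn1 (0.0042), Zmat3 (0.016), Cdkn1b (0.040) and Ddit3 (0.063). With the receptor share they were Mdm2 pooled (0.00035), in females (0.066) and in males (-0.066), Trp53inp1 (0.060), Phlda3 (0.016) and Eda2r (-0.067) in females, and Mdm4 (0.040), Ppm1d (0.093), Sesn1 (0.089), Zmat3 (0.028), Cdkn1b (0.14) and Ddit3 (0.11) pooled. Leaving out 1 lung, the male values ran from -0.11 to 0.13 for Cdkn1a, -0.15 to 0.21 for Mdm2, -0.11 to 0.33 for Gdf15, -0.11 to 0.17 for Bax, -0.32 to 0.079 for Plk2 and -0.21 to 0.087 for Phlda3. Pooled values ran from -0.068 to 0.10 for Trp53inp1, -0.015 to 0.041 for Sesn2, -0.14 to 0.0075 for Eda2r, -0.20 to 0.0044 for Mdm4, -0.12 to 0.056 for Ppm1d, -0.13 to 0.063 for Sesn1, -0.052 to 0.017 for Zmat3, -0.13 to 0.10 for Cdkn1b, -0.052 to 0.13 for Cdkn1c and -0.13 to 0.10 for Ddit3. The 5 correlated pairs became 12 with TMM, 0 with values centred on their group and 0 with the receptor share regressed out. The count for centred values comes from the coarser test within groups, in which r of 0.93 for Mdm2 with Trp53inp1 did not pass.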

Other observations

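Male room air lung 1, which had 37.0 CPM of Perp, also had summed skeletal muscle markers of 1819 CPM, against 122 to 222 CPM in the other 11 lungs. Without this lung the pooled log2 fold change of Perp was -0.18 in place of -0.78, and the relation between both was not tested.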
